A study of Mus musculus with 19 samples.

Results

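The Hox genes encode homeodomain transcription factors that sit in 4 clusters in mammals, HoxA to HoxD. Their members were taken here as every gene whose symbol is Hoxa, Hoxb, Hoxc or Hoxd followed by a number and that is listed in both expression tables of the series, one for kidneys at E16.5 and one for kidneys at E14.5 (days of embryonic development). The rule found 38 genes among the 20162 names of the E16.5 table and the 24452 names of the E14.5 table. A 39th symbol, Hoxb13, is in the E14.5 table alone, where it is listed at 0 in all 4 libraries. The rule itself uses symbols and no measured value. In the GENCODE annotation of mm10, the HoxA genes from Hoxa2 to Hoxa13 lie on chromosome 6 from 52162417 to 52260880, the HoxB genes (Hoxb13 included) on chromosome 11 from 96194316 to 96368256, the HoxC genes on chromosome 15 from 102921103 to 103036852 and the HoxD genes on chromosome 2 from 74668310 to 74765142. HoxA is on the minus strand and the other clusters are on the plus strand.

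Genes of the same number in different clusters are paralogs. Low numbers lie at the 3′ end of a cluster and are used in anterior tissue such as the hindbrain, and high numbers lie at the 5′ end and are used in posterior and distal tissue such as the lumbar trunk, limbs and genital region. The permanent kidney, the metanephros, forms in the posterior trunk. The Hox11 genes (Hoxa11, Hoxc11 and Hoxd11) are jointly required for its induction and work there with Eya1 and Pax2 upstream of Six2 and Gdnf. The Hox10 paralogs are needed in the kidney stroma. Hox proteins bind DNA together with cofactors of the Pbx, Meis and Pknox families.

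Poly(A) RNA was sequenced from embryonic kidney cells of CFW mice. At E16.5 the groups were SIX2+ and SIX2- cells and unsorted nephrogenic zone cells (NZC), with no allele given, and GFP+ and GFP- cells of Six2TGC/+ kidneys, with 3 libraries in each of these 5 groups. At E14.5 kidneys of Foxd1Cre;Tdt embryos were split into Tdt+ and Tdt- cells, with 2 libraries each. SIX2 marks the nephron progenitors of the cap mesenchyme. The first 3 groups carry the prefix mMARIS, the name of a method that sorts fixed cells stained for a protein inside the cell. Six2TGC places a GFP-Cre fusion under Six2 regulatory sequence, and every GFP- library carries that allele too. Tdt marks cells with a history of Foxd1 activity, the stromal lineage, and every Tdt- library carries the same alleles. The labels do not say that libraries of 1 group came from separate animals, so the p-values below measure the spread between these libraries, which may be technical.

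Marker genes followed the labels. Six2 was at 301, 295 and 458 RPKM in SIX2+ and 312, 348 and 346 in GFP+ libraries, against 4.43, 7.59 and 46.8 in SIX2- and 2.70, 2.88 and 16.8 in GFP-, so the last library of each negative group held the most Six2. Foxd1 was at 205 and 102 in Tdt+ and 29.9 and 25.2 in Tdt-. RPKM divides a gene's reads by its length and by the depth of the library, so levels can be compared between genes. Depth, estimated from the low values, was about 26.2 to 45.5 M reads in 14 E16.5 libraries and about 3.09 M in NZC library 2. At E14.5 it was about 8.44 and 9.44 M in Tdt+ and 26.2 and 30.4 M in Tdt-. The tables were normalised separately, so tests stay within a table and levels of different ages are only set side by side.

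Hox expression was broad, and the Hox10 genes led it. Of the 38 genes, 32 reached 1 RPKM in at least 3 E16.5 libraries and could be tested there, and 31 reached it in at least 2 E14.5 libraries. Hoxc10, Hoxd10 and Hoxa10 were the 3 highest Hox genes by mean level in SIX2-, GFP+, GFP-, Tdt+ and Tdt-. Hoxc10 averaged 111 ± 12.5 RPKM (SD, n = 3) in GFP+ and 51.1 ± 6.39 in GFP-. In SIX2+ the order was Hoxd10 (90.1 ± 11.99), Hoxc10 (88.2 ± 3.62), Hoxb6 (86.6 ± 4.49) and Hoxa10 (86.1 ± 10.1), which differ by less than their spread. Anterior genes were not absent from this posterior organ: Hoxa5, a gene best known from lung development, averaged 58.8 ± 14.1 in SIX2+ and 38.98 ± 3.87 in SIX2-.

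Low levels were found at the ends of the clusters. Hoxa13, Hoxb1, Hoxc12, Hoxc13, Hoxd1 and Hoxd13 were not testable at either age. Hoxc12 was above 0 in 1 SIX2- and 1 GFP- library only, at 0.0548 and 0.0267 RPKM. Hoxd13, a gene of digits and external genitalia, reached at most 0.491 RPKM in any library. Its neighbour Hoxd12 averaged 10.8 ± 2.12 RPKM in SIX2+ and 20.4 ± 2.24 in GFP+, but 0.836 ± 0.502 in SIX2- and 0.838 ± 0.217 in GFP-, where Hoxd11 averaged 24.01 ± 3.12 and 26.96 ± 1.68 (SD, n = 3 each). The place of the drop in HoxD levels thus differed between the fractions.

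**Figure D1:**
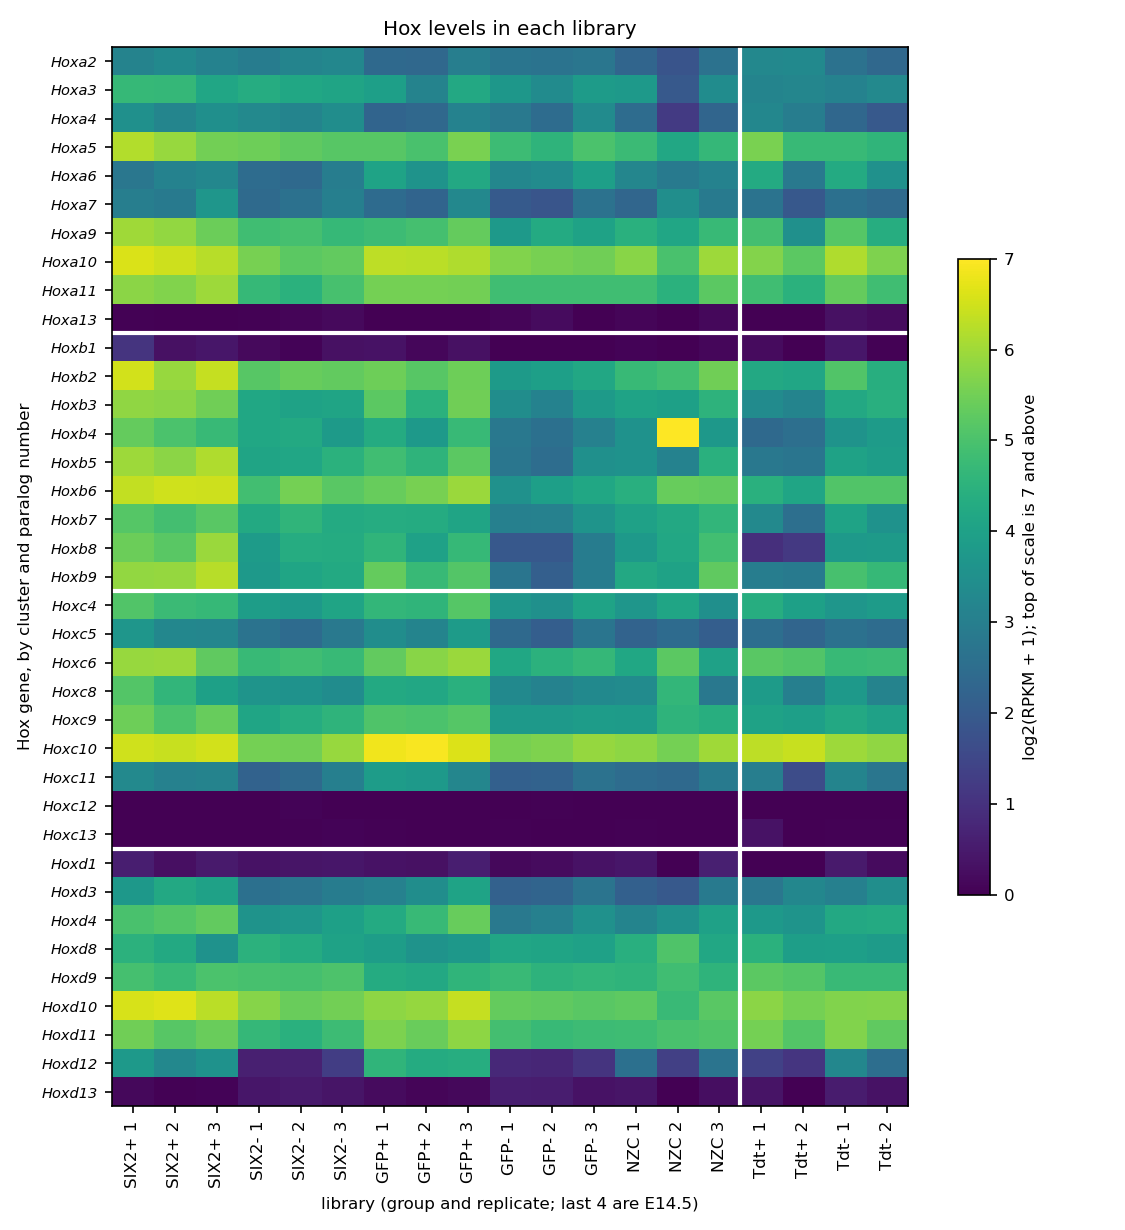
Heat map of log2(RPKM + 1) for 37 Hox genes (rows, by cluster and paralog number, white lines between clusters) in the 19 libraries (columns, white line before the E14.5 libraries). Rows at the 5′ end of HoxA, HoxC and HoxD (Hoxa13, Hoxc12, Hoxc13, Hoxd13) and Hoxb1 and Hoxd1 are dark, the Hox10 rows are bright, and Hoxb4 in NZC library 2 is the single brightest cell.

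Hox RNA levels were higher in nephron progenitors than in the other cells of the same sort, in the SIX2 sort and in the GFP sort. In the SIX2 sort 21 of the 32 testable Hox genes were higher in SIX2+ and 0 were lower at an adjusted p under 0.05 (limma on log2(RPKM + 1), Benjamini-Hochberg over 12817 genes). Of all genes tested, 8.37% were higher and 15.9% were lower (24.3% in either direction). In the GFP sort 22 of 32 were higher and 0 were lower, against 15.9% and 17% of all genes (32.9% in either direction). At an unadjusted p under 0.05, 0 of the 32 Hox genes were lower in SIX2+ and 1 was lower in GFP+. All genes were not counted at that cut-off, here or in the comparisons below. The median Hox difference was 0.95 in the SIX2 sort, where the median of all genes was 0.04, and 1.05 in the GFP sort, where it was 0.09. In bulk samples fewer cells of a type and less RNA per cell cannot be told apart.

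The same 21 genes were higher in both sorts. How many of all genes were called higher in both was not counted, so this overlap has no background to set it against. Hoxc11 was called in the GFP sort alone, and the test of the difference between the sorts did not separate them for this gene (SIX2 sort effect minus GFP sort effect -0.66 ± 0.33, adjusted p = 0.9998). By limma none of the 32 Hox genes passed that test and 0 had an unadjusted p under 0.05, where 0.14% of all genes passed (0.0468% higher and 0.0936% lower), with Hox differences between the sorts of -0.85 (Hoxd12) to 0.42 (Hoxa11). Fitting with weights for library quality was the exception, with a larger difference in the SIX2 sort for 3 Hox genes and in the GFP sort for 6, where 4.69% and 7.3% of all genes passed with these weights. Across the 32 genes the effects of the sorts had a Pearson r of 0.948, a description over genes that share libraries and are not independent. The sorts share no library, but all 15 libraries entered 1 fit.

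**Figure D2:**
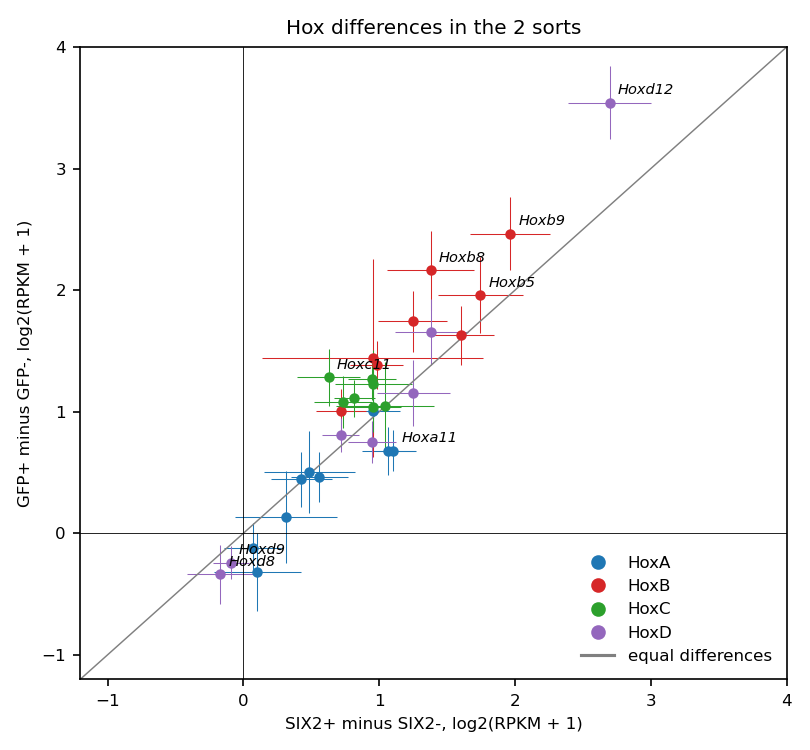
Each point is 1 of 31 testable Hox genes, placed by its log2(RPKM + 1) difference in the SIX2 sort (x axis) and in the GFP sort (y axis), with bars of 1 standard error and colour by cluster. Hoxd12 is farthest out at 2.70 and 3.54, the HoxB genes lie above the line of equal differences, and Hoxd8 and Hoxd9 lie below 0 on both axes.

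In HoxA the genes that rose were the posterior ones. Hoxa9, Hoxa10 and Hoxa11 were higher in both sorts, while none of the 6 genes from Hoxa2 to Hoxa7 was called in either. Hoxa11 stood at 54.4, 50.1 and 61.7 RPKM in the SIX2+ libraries and 24.9, 21.2 and 30.03 in the SIX2- libraries, and at 45.8, 45.4 and 44.5 in GFP+ and 28.2, 27.7 and 27.7 in GFP-. It differed by 1.10 ± 0.17 (limma adjusted p = 2.38e-04) in the SIX2 sort and 0.68 ± 0.17 (adjusted p = 0.00705) in the GFP sort. In both sorts all progenitor libraries lay above all others, and the GFP+ and GFP- libraries hardly varied. Hoxa10, a patterning gene of the lumbar region and the uterus, stood at 95.7, 86.96 and 75.5 RPKM in the SIX2+ libraries and 45.98, 36.6 and 39.04 in the SIX2- libraries, and at 77.6, 77.1 and 70.8 in GFP+ and 50.4, 45.96 and 43.6 in GFP-. Its differences were 1.07 ± 0.20 (limma adjusted p = 9.58e-04) in the SIX2 sort and 0.68 ± 0.20 (adjusted p = 0.0162) in the GFP sort. The GFP call was lost without GFP- library 3 (adjusted p = 0.0527) and with values rescaled to TPM (adjusted p = 0.0631). Hoxa9, which is also known as a regulator of blood progenitors, stood at 63.3, 57.8 and 42.4 RPKM in the SIX2+ libraries and 27.7, 29.3 and 24.98 in the SIX2- libraries, and at 26.8, 29.6 and 39.7 in GFP+ and 12.6, 18.2 and 15.3 in GFP-. Its differences of 0.95 ± 0.20 (limma adjusted p = 0.00237) in the SIX2 sort and 1.01 ± 0.20 (adjusted p = 0.00124) in the GFP sort left no overlap between the fractions.

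The other HoxA genes were not called. Hoxa2, which sets the identity of the second pharyngeal arch, was at 7.76, 9.02 and 7.66 RPKM in SIX2+ and 6.73, 8.01 and 8.47 in SIX2-, so these groups overlap. Hoxa5 was at 72.6, 59.5 and 44.3 in SIX2+ and 43.2, 38.2 and 35.6 in SIX2-, with no overlap, and missed the threshold (adjusted p = 0.0699). It passed with the replicate number as a block (adjusted p = 0.0433) or without NZC library 2 (adjusted p = 0.0361). Over the 6 genes from Hoxa2 to Hoxa7 the adjusted p ran from 0.0699 to 0.873 in the SIX2 sort and from 0.107 to 0.82 in the GFP sort. The Hoxa3 gene model spans Hoxa4, Hoxa5 and Hoxa6, so reads could be split between them, and the values of Hoxa3 to Hoxa6 are uncertain.

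HoxB was higher from Hoxb2 to Hoxb9. Of these 8 genes 7 were called in both sorts, and the eighth, Hoxb4, was positive in both without being called. Its largest change in both sorts was at the 5′ end, in Hoxb9. Hoxb9, of the paralog group that patterns the thoracic ribs, stood at 57.5, 58.8 and 75.3 RPKM in the SIX2+ libraries and 12.7, 16.2 and 18.1 in the SIX2- libraries, and at 39.9, 25.4 and 33.8 in GFP+ and 5.61, 3.38 and 6.71 in GFP-. Its differences were 1.96 ± 0.30 (limma adjusted p = 1.99e-04) in the SIX2 sort and 2.47 ± 0.30 (adjusted p = 1.84e-05) in the GFP sort. Its SIX2+ mean was 4.07 times the SIX2- mean, and its GFP+ mean 6.31 times the GFP- mean. Hoxb8, known for its expression in a lineage of microglia, stood at 42.3, 36.1 and 60.8 RPKM in the SIX2+ libraries and 13.3, 19.1 and 18.6 in the SIX2- libraries, and at 22.8, 15.1 and 24.9 in GFP+ and 2.82, 2.80 and 6.62 in GFP-. It differed by 1.38 ± 0.32 (limma adjusted p = 0.00555) in the SIX2 sort and 2.16 ± 0.32 (adjusted p = 1.31e-04) in the GFP sort. GFP- library 3 held more Hoxb8 than the other GFP- libraries, as it did of Six2. Hoxb7, whose regulatory sequence is widely used to drive transgenes in the ureteric bud, stood at 34.8, 28.8 and 36.3 RPKM in the SIX2+ libraries and 18.2, 22.8 and 18.6 in the SIX2- libraries, and at 19.2, 18.7 and 16.1 in GFP+ and 7.25, 7.37 and 11.3 in GFP-. Its differences were 0.72 ± 0.19 (limma adjusted p = 0.0107) in the SIX2 sort and 1.0 ± 0.19 (adjusted p = 8.18e-04) in the GFP sort. This was the smallest called change of the cluster in both sorts, and Ret, a ureteric bud marker, was lower in the progenitor fractions of both sorts.

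The middle and anterior HoxB genes followed. Hoxb6, an early marker of lateral and posterior mesoderm, stood at 81.5, 89.96 and 88.2 RPKM in the SIX2+ libraries and 28.4, 45.1 and 36.1 in the SIX2- libraries, and at 40.7, 46.1 and 60.96 in GFP+ and 10.7, 14.46 and 16.999 in GFP-. Its differences were 1.24 ± 0.25 (limma adjusted p = 0.00197) in the SIX2 sort and 1.74 ± 0.25 (adjusted p = 9.72e-05) in the GFP sort. In SIX2+ it was the highest HoxB gene. Hoxb5, which acts in enteric neural crest, stood at 62.2, 53.9 and 71.2 RPKM in the SIX2+ libraries and 16.02, 16.6 and 21.2 in the SIX2- libraries, and at 27.9, 22.4 and 37.02 in GFP+ and 5.69, 4.71 and 10.5 in GFP-. Its differences were 1.75 ± 0.31 (limma adjusted p = 7.78e-04) in the SIX2 sort and 1.96 ± 0.31 (adjusted p = 2.35e-04) in the GFP sort. The antisense transcript Hoxb5os overlaps Hoxb5 and Hoxb6, so these values are uncertain unless reads were counted by strand. Hoxb3, of the cervical and pharyngeal paralog group, stood at 56.2, 54.3 and 43.3 RPKM in the SIX2+ libraries and 16.97, 15.5 and 15.9 in the SIX2- libraries, and at 36.8, 21.4 and 43.8 in GFP+ and 9.71, 7.52 and 13.1 in GFP-. Its differences were 1.60 ± 0.24 (limma adjusted p = 2.03e-04) in the SIX2 sort and 1.63 ± 0.24 (adjusted p = 1.36e-04) in the GFP sort. These were the closest pair of differences in HoxB. Hoxb2, a hindbrain gene, stood at 90.2, 59.7 and 82.2 RPKM in the SIX2+ libraries and 35.02, 40.4 and 39.2 in the SIX2- libraries, and at 43.3, 35.2 and 43.1 in GFP+ and 13.1, 14.4 and 17.4 in GFP-. Its differences were 0.98 ± 0.20 (limma adjusted p = 0.00189) in the SIX2 sort and 1.38 ± 0.20 (adjusted p = 8.70e-05) in the GFP sort. It was the most anterior HoxB gene above 1 RPKM, since Hoxb1 stayed below that level in all but 1 library.

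Hoxb4, known for its use in expanding blood stem cells, stood apart because of 1 library that is in neither sort. It was at 39.4, 31.5 and 25.3 RPKM in SIX2+ and 16.997, 17.95 and 13.03 in SIX2-, and at 18.9, 12.7 and 25.2 in GFP+ and 6.03, 5.02 and 7.45 in GFP-, with no overlap in either sort. The differences of 0.95 ± 0.82 and 1.44 ± 0.82 were not called (limma adjusted p = 0.472 and 0.197). The NZC libraries, which share the estimate of spread, had 10.8, 264 and 12.2. Without NZC library 2 both were called, with adjusted p = 0.00498 and 1.84e-04 and the same differences. The counts became 24 and 23 of 32 Hox genes higher, where 1733 and 3011 of 12760 genes were higher. Hoxb4 then joined the other 7 HoxB genes.

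HoxC differences were of near equal size along the cluster. Its 7 testable genes had differences of 0.63 to 1.04 in the SIX2 sort, with 6 called, and of 1.04 to 1.28 in the GFP sort, with 7 called. Hoxc10 stood at 89.7, 84.04 and 90.8 RPKM in the SIX2+ libraries and 45.6, 44.7 and 59.7 in the SIX2- libraries, and at 115, 122 and 97.5 in GFP+ and 46.1, 48.96 and 58.3 in GFP-. Its differences were 0.82 ± 0.15 (limma adjusted p = 0.00109) in the SIX2 sort and 1.11 ± 0.15 (adjusted p = 6.32e-05) in the GFP sort. Hoxc10 was the most abundant Hox gene of GFP+ cells. Hoxc11, the least abundant Hox11 paralog here, was at 8.91, 7.43 and 7.72 RPKM in SIX2+ and 3.60, 4.34 and 7.06 in SIX2-, and at 13.7, 12.5 and 8.27 in GFP+ and 3.42, 3.61 and 5.25 in GFP-. Its differences were 0.63 ± 0.23 (limma adjusted p = 0.0692) in the SIX2 sort and 1.28 ± 0.23 (adjusted p = 7.31e-04) in the GFP sort. The fractions did not overlap in either sort, with SIX2- library 3 close below the SIX2+ libraries. Without NZC library 2 the SIX2 difference passed (adjusted p = 0.0493). Hoxc9, which sets the identity of thoracic motor neurons, stood at 42.7, 31.5 and 40.2 RPKM in the SIX2+ libraries and 16.46, 19.1 and 22.3 in the SIX2- libraries, and at 32.9, 31.3 and 34.3 in GFP+ and 12.8, 12.8 and 13.5 in GFP-. Its differences were 0.95 ± 0.18 (limma adjusted p = 0.00104) in the SIX2 sort and 1.27 ± 0.18 (adjusted p = 6.64e-05) in the GFP sort. The 3 GFP- libraries lay close together, far below GFP+.

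The remaining HoxC genes were called with less margin. Hoxc8, a regulator of thoracic and brachial identity, stood at 33.8, 23.5 and 14.7 RPKM in the SIX2+ libraries and 11.4, 10.8 and 9.49 in the SIX2- libraries, and at 18.02, 17.3 and 20.8 in GFP+ and 8.92, 7.63 and 9.02 in GFP-. Its differences were 1.04 ± 0.36 (limma adjusted p = 0.0484) in the SIX2 sort and 1.05 ± 0.36 (adjusted p = 0.0375) in the GFP sort. Leaving out any 1 library of the SIX2 sort but SIX2+ library 3, or any 1 library of the GFP sort, ended the call in that sort. So did no filter, quantile normalisation and median-of-ratios scaling in both sorts, and a pseudocount of 0.1 or a filter of at least 5 in the SIX2 sort. Hoxc6, a brachial patterning gene, stood at 59.8, 60.2 and 38.3 RPKM in the SIX2+ libraries and 25.1, 28.1 and 25.3 in the SIX2- libraries, and at 38.7, 52.6 and 61.1 in GFP+ and 16.98, 21.7 and 24.1 in GFP-. Its differences were 0.96 ± 0.28 (limma adjusted p = 0.0213) in the SIX2 sort and 1.23 ± 0.28 (adjusted p = 0.00377) in the GFP sort. Hoxc5, of the same region, stood at 11.8, 8.47 and 8.22 RPKM in the SIX2+ libraries and 5.33, 4.46 and 6.10 in the SIX2- libraries, and at 9.83, 7.999 and 13.3 in GFP+ and 4.23, 3.27 and 5.58 in GFP-. Its differences were 0.73 ± 0.21 (limma adjusted p = 0.0208) in the SIX2 sort and 1.08 ± 0.21 (adjusted p = 0.00129) in the GFP sort. In the SIX2 sort the call of Hoxc6 ended when library 1 or 2 of SIX2+, or library 1 or 3 of SIX2-, was left out. That of Hoxc5 ended when library 1 of SIX2+, or 1 or 2 of SIX2-, was. The Hoxc5 gene model reaches back into Hoxc10 and spans Hoxc6, Hoxc8 and Hoxc9, so the values of these genes could share reads and are uncertain. Hoxc4, the most anterior gene of the cluster, stood at 33.6, 26.4 and 24.8 RPKM in the SIX2+ libraries and 13.8, 12.5 and 15.9 in the SIX2- libraries, and at 23.7, 22.9 and 34.7 in GFP+ and 11.7, 10.3 and 15.8 in GFP-. Its differences were 0.95 ± 0.21 (limma adjusted p = 0.00369) in the SIX2 sort and 1.04 ± 0.21 (adjusted p = 0.00155) in the GFP sort.

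HoxD held both the largest change and genes that were not called. Hoxd12, a gene of the distal limb, stood at 12.8, 8.55 and 10.9 RPKM in the SIX2+ libraries and 0.537, 0.556 and 1.42 in the SIX2- libraries, and at 22.9, 18.7 and 19.6 in GFP+ and 0.755, 0.674 and 1.08 in GFP-. Its differences of 2.70 ± 0.30 (limma adjusted p = 1.29e-05) in the SIX2 sort and 3.54 ± 0.30 (adjusted p = 6.38e-07) in the GFP sort were the largest of any Hox gene in both sorts. The SIX2+ mean was 12.9 times the SIX2- mean and the GFP+ mean 24.3 times the GFP- mean. Without SIX2- library 3, which held the most Hoxd12 and the most Six2 of its group, the SIX2 ratio was 19.7. Negative fractions were near 1 RPKM, so on the log2(RPKM + 1) scale these differences are understated. Hoxd11 stood at 43.5, 35.5 and 41.1 RPKM in the SIX2+ libraries and 24.2, 20.8 and 27.001 in the SIX2- libraries, and at 48.3, 41.4 and 55.1 in GFP+ and 28.8, 25.5 and 26.6 in GFP-. Its differences were 0.72 ± 0.14 (limma adjusted p = 0.00136) in the SIX2 sort and 0.81 ± 0.14 (adjusted p = 4.04e-04) in the GFP sort. All 3 Hox11 genes were also present in the negative fractions, above 3 RPKM in each library. Hoxd10, a gene of lumbar motor neurons and hindlimb, stood at 94.5, 99.2 and 76.5 RPKM in the SIX2+ libraries and 51.8, 41.5 and 44.9 in the SIX2- libraries, and at 54.6, 58.04 and 82.7 in GFP+ and 39.4, 37.9 and 35.8 in GFP-. Its differences were 0.95 ± 0.18 (limma adjusted p = 0.00105) in the SIX2 sort and 0.75 ± 0.18 (adjusted p = 0.00464) in the GFP sort.

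Between the posterior and the anterior HoxD genes lay a pair that was not called. Hoxd9 was at 29.3, 25.2 and 31.2 RPKM in SIX2+ and 30.01, 29.6 and 31.9 in SIX2-, and at 18.9, 17.8 and 23.1 in GFP+ and 25.9, 21.9 and 23.2 in GFP-. Hoxd8 was at 21.6, 17.9 and 10.9 in SIX2+ and 21.6, 18.7 and 15.4 in SIX2-, and at 13.9, 11.2 and 12.4 in GFP+ and 16.8, 15.9 and 15.2 in GFP-. Hoxd9 overlapped in both sorts, while Hoxd8 overlapped in the SIX2 sort and was lower in every GFP+ than in every GFP- library. Both had negative differences in both sorts, of -0.10 ± 0.13 and -0.24 ± 0.13 for Hoxd9 and -0.17 ± 0.24 and -0.34 ± 0.24 for Hoxd8, with adjusted p of 0.184 to 0.687. Their means were thus not higher in the positive fractions, while Hoxd10 to Hoxd12 on one side and Hoxd3 and Hoxd4 on the other were called higher. Hoxd4, a cervical patterning gene, stood at 30.7, 33.7 and 38.7 RPKM in the SIX2+ libraries and 11.03, 11.9 and 14.9 in the SIX2- libraries, and at 18.5, 25.4 and 40.6 in GFP+ and 6.10, 7.33 and 10.6 in GFP-. Its differences were 1.38 ± 0.27 (limma adjusted p = 0.00156) in the SIX2 sort and 1.66 ± 0.27 (adjusted p = 2.85e-04) in the GFP sort. Hoxd3, its 3′ neighbour, stood at 12.3, 17.8 and 15.2 RPKM in the SIX2+ libraries and 5.01, 5.51 and 6.71 in the SIX2- libraries, and at 7.44, 9.82 and 15.6 in GFP+ and 3.49, 3.76 and 5.43 in GFP-. Its differences were 1.25 ± 0.27 (limma adjusted p = 0.00334) in the SIX2 sort and 1.15 ± 0.27 (adjusted p = 0.0046) in the GFP sort. The annotation starts Hoxd3 and Hoxd4 within 2 bases of each other, so the values of this pair are uncertain.

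**Figure D3:**
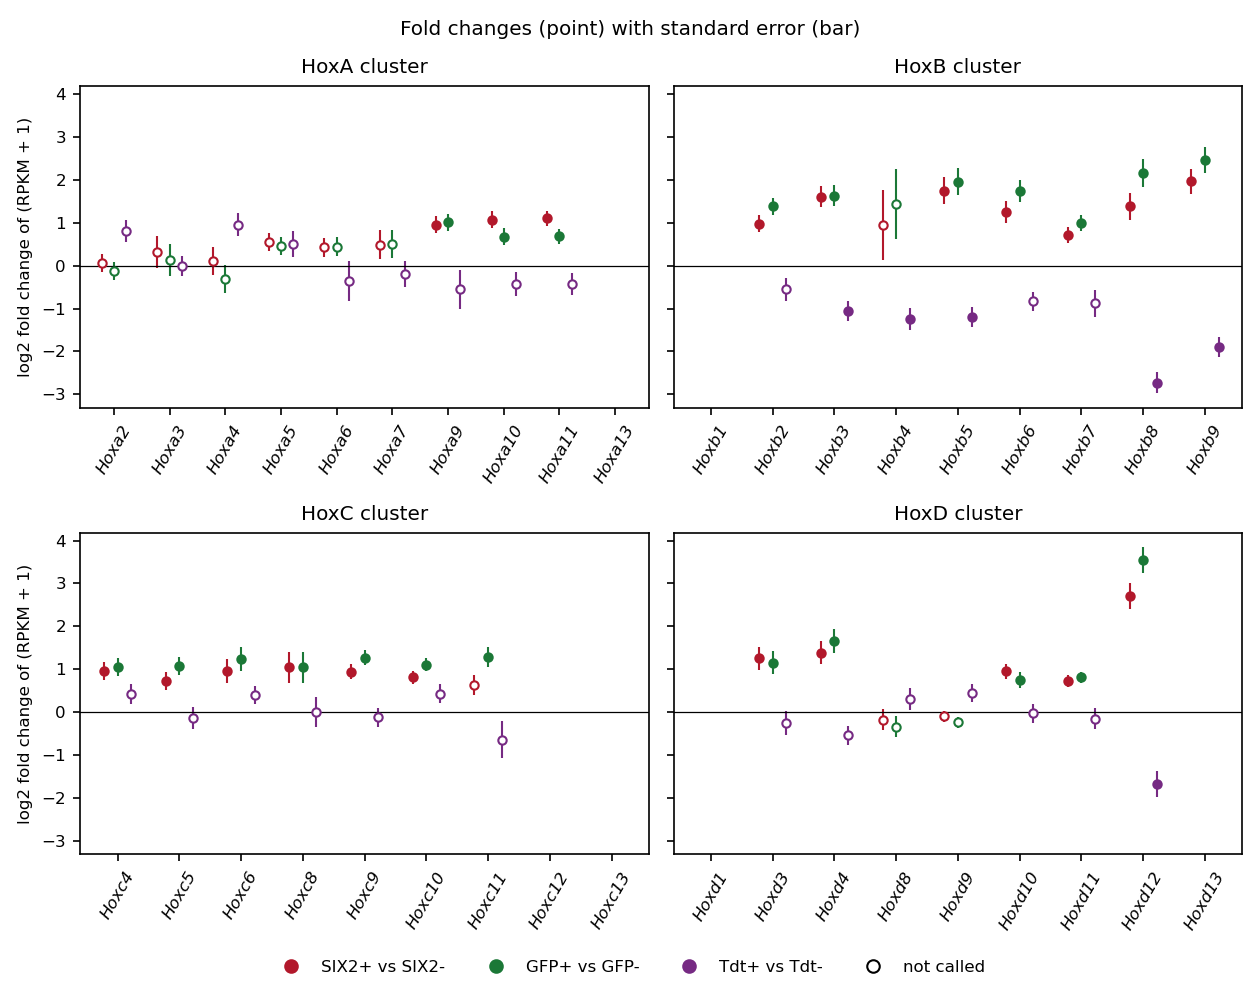
Log2 fold change of (RPKM + 1) for 31 testable Hox genes, in order of paralog number within the 4 clusters, with bars of 1 standard error, for SIX2+ against SIX2- (red), GFP+ against GFP- (green) and Tdt+ against Tdt- (purple). Filled points passed limma's test, all HoxB points are above 0 in the progenitor sorts and below 0 in the Tdt sort, and Hoxd8 and Hoxd9 stay between -0.34 and 0.45.

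Sequences upstream of 3 of these genes are given to show the DNA next to the starts of the gene with the largest progenitor difference (Hoxd12), of a gene of the same cluster that was not called (Hoxd8) and of the gene with the largest Tdt difference (Hoxb8). Each is the 250 bases before the RefSeq start on GRCm38.p6, plus strand, at chr2:74674763-74675012, chr2:74704365-74704614 and chr11:96281655-96281904. Capitals mark matches on either strand to TTTATNG, a core bound by posterior Hox proteins, and to TGATNNAT, a Pbx-Hox composite site.
Hoxd12: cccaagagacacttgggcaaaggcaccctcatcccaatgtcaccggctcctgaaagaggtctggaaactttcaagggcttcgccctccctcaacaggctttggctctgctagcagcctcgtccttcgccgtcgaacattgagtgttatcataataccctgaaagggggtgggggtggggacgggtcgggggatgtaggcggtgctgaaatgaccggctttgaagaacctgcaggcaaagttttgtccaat
Hoxd8: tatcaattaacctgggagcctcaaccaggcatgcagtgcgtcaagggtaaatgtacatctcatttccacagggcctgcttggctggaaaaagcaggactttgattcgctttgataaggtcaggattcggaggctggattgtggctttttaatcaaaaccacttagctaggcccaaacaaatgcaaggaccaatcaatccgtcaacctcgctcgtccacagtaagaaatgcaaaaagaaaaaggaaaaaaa
Hoxb8: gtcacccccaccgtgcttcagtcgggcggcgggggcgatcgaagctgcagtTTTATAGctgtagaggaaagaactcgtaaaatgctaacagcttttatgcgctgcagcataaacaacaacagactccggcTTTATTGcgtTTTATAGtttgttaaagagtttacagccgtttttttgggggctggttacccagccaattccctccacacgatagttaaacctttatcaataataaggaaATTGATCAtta
The Hoxb8 window holds 3 matches to TTTATNG and 1 to TGATNNAT, which do not overlap, and the other windows hold none. TTTATNG occurred in 9.81% of all 32851 promoter windows of this length and in 2 of 24 windows of 22 Hox genes (8.33%). TGATNNAT occurred in 7.68% and in 4 of 24 (16.7%), and the Meis-type core TGACAG in 15.9% and in 2 of 24 (8.33%), with none in the windows shown. The median number of CG dinucleotides was 12.5 in Hox windows and 6 in all windows. It was 10 for Hoxd12, 6 for Hoxd8 and 12 for Hoxb8. These are matches of letters only.

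By paralog number, 3 of 6 testable genes of groups 1 to 3 rose in each sort, as did 9 of 15 of groups 4 to 8. In groups 9 to 13 it was 9 of 11 in the SIX2 sort and 10 of 11 in the GFP sort, Hoxd9 not being called in either. Median differences were 0.65, 0.95 and 0.95 in the SIX2 sort and 0.64, 1.05 and 1.01 in the GFP sort. Summed over the 38 genes, Hox RPKM was 1249 ± 72.8 (SD, n = 3) in SIX2+ and 625 ± 20.3 in SIX2-, and 947 ± 107 in GFP+ and 459 ± 41.8 in GFP-. Both positive groups lay wholly above their negative ones.

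Markers of other cell types moved with the same split. All 5 stromal markers were lower in the progenitor fractions of both sorts, their sum running from 29.3 to 40.1 RPKM in SIX2+, 767 to 1266 in SIX2-, 44.6 to 64.6 in GFP+ and 1486 to 2049 in GFP-. Likewise all 5 endothelial, all 5 leukocyte and all 4 podocyte markers and the 4 testable of 6 ureteric markers were lower in both. All 5 erythroid markers were lower in GFP+, with sums of 11.3 to 50.8 against 817 to 8433 RPKM in GFP-. None of them passed in the SIX2 sort, with sums of 0.286 to 1.73 in SIX2+ and 3.61 to 16.2 in SIX2-. Tubule markers were lower in 4 of 4 (SIX2) and 3 of 4 (GFP). Lower markers that were under 1 RPKM in every progenitor library met the filter only through other groups, so their calls are weak evidence. Elavl4, a neural marker, was higher in both. No marker was at 0 throughout SIX2- or GFP-. All 5 cap mesenchyme markers were higher in both sorts. Their part in the Hox differences was not tested.

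In the Foxd1 lineage the Hox genes that changed were lower, and most of them were HoxB genes. Of 31 testable Hox genes 6 were lower in Tdt+ and 0 were higher (limma, 12383 genes), against 7.21% and 1.22% of all genes (8.43% in either direction). At an unadjusted p under 0.05, 9 Hox genes were lower and 2 higher, with no count of all genes at that cut-off. The genes called were 5 HoxB genes and Hoxd12. Hoxb8 was at 0.917 and 1.26 RPKM in Tdt+ and 12.4 and 13.1 in Tdt-, a difference of -2.73 ± 0.25 (adjusted p = 0.00115). The Tdt- mean was 11.8 times the Tdt+ mean. Hoxb9 was at 6.83 and 6.37 in Tdt+ and 30.2 and 24.7 in Tdt-, a difference of -1.90 ± 0.23 (adjusted p = 0.00328). Both genes had no overlap between the fractions, and they were also those with the largest HoxB differences in the GFP sort. Hoxd12 was at 1.54 and 1.12 in Tdt+ and 8.52 and 4.79 in Tdt-, a difference of -1.68 ± 0.31 (adjusted p = 0.0149).

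Falls were smaller in the HoxB genes other than Hoxb8 and Hoxb9, without a steady order along the cluster. Hoxb5 was at 6.01 and 5.63 in Tdt+ and 15.3 and 13.96 in Tdt- (-1.19 ± 0.23, limma adjusted p = 0.0195). Hoxb4 was at 4.23 and 4.90 in Tdt+ and 11.04 and 13.4 in Tdt- (-1.24 ± 0.25, adjusted p = 0.0212). Hoxb3 was at 9.29 and 7.94 in Tdt+ and 17.7 and 20.3 in Tdt- (-1.06 ± 0.23, adjusted p = 0.0306). The other 3 testable HoxB genes, Hoxb2, Hoxb6 and Hoxb7, were also lower in both Tdt+ libraries than in both Tdt- libraries and were not called (adjusted p 0.0636 to 0.279). Their differences were -0.55, -0.83 and -0.88. The 2 libraries per group leave 2 residual degrees of freedom, and the calls changed when 1 library was left out. Such fits leave 1 library in a group, so only their effects are given here. The median Hox difference ran from -0.56 to -0.02, against -0.25 with all libraries. Hoxb8 and Hoxb9 were called under every alternative that kept all libraries. Hoxb3, Hoxb4, Hoxb5 and Hoxd12 were lost with no filter on low values. This left 2 Hox genes, where 221 of 18994 genes were lower.

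Some genes were higher in Tdt+ without passing the test. Hoxa4, an anterior HoxA gene, was at 8.42 and 6.75 in Tdt+ and 4.02 and 2.88 in Tdt- (0.95 ± 0.27, limma adjusted p = 0.0721). Hoxa2 was at 8.67 and 9.09 in Tdt+ and 5.198 and 4.13 in Tdt- (0.81 ± 0.25, adjusted p = 0.0955). For both genes the Tdt+ libraries lay above the Tdt- libraries. Hotairm1, a non-coding RNA of the HoxA cluster, was called higher, at 8.75 and 8.91 in Tdt+ and 4.01 and 2.69 in Tdt- (1.19 ± 0.26, adjusted p = 0.0313). Hoxd9 was at 36.7 and 34.2 in Tdt+ and 25.7 and 25.8 in Tdt- with no overlap, and was not called (adjusted p = 0.254).

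The Hox10 and Hox11 genes were not called between Tdt+ and Tdt-. Hoxa11 was at 28.03 and 21.2 in Tdt+ and 39.3 and 27.7 in Tdt-. Hoxc11 was at 7.03 and 2.07 in Tdt+ and 8.01 and 5.66 in Tdt-. Hoxd11 was at 45.4 and 34.1 in Tdt+ and 49.9 and 38.5 in Tdt-. The groups overlap for all 3. The limma adjusted p of the Hox11 genes ran from 0.379 to 0.759. For Hoxa10, Hoxc10 and Hoxd10 it was 0.392, 0.305 and 0.949. Hoxc10 was at 77.4 and 83.5 in Tdt+ and 62.4 and 56.7 in Tdt- with no overlap, while Hoxa10 and Hoxd10 overlapped. These values do not show that levels are equal. No HoxC gene was called, with adjusted p from 0.299. Cap mesenchyme markers summed to 6.86 to 13.1 RPKM in Tdt+ and 230 to 249.3 in Tdt-, with 4 of 5 called lower. Endothelial markers summed to 14.2 to 20.9 and 48.9 to 73.0, with 3 of 5 lower, and leukocyte markers to 1.85 to 5.48 and 19.0 to 58.0, with 3 of 4 testable lower and Ptprc and Tyrobp at 0 in Tdt+. Podocyte markers summed to 2.41 to 3.19 and 28.8 to 38.7 (4 of 4 lower), and tubule markers to 1.94 to 2.73 and 18.5 to 20.9, with Hnf4a and Lhx1 lower and Lhx1 at 0 in Tdt+. Erythroid markers (10.4 to 108 and 185 to 1512) did not pass. Calb1 was the 1 ureteric marker that was lower (sums 11.4 to 20.9 and 11.2 to 14.4), and the neural marker Elavl4 was lower. Markers called lower that were under 1 RPKM in both Tdt+ libraries met the filter only through Tdt-, so these calls are weak evidence. Stromal markers summed to 1119 to 1903 in Tdt+ and 1595 to 2186 in Tdt-, and Foxd1 alone of 5 was called. The Tdt+ libraries were also the shallower ones, and the part of these cells and of depth in the Hox differences was not tested.

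**Figure D4:**
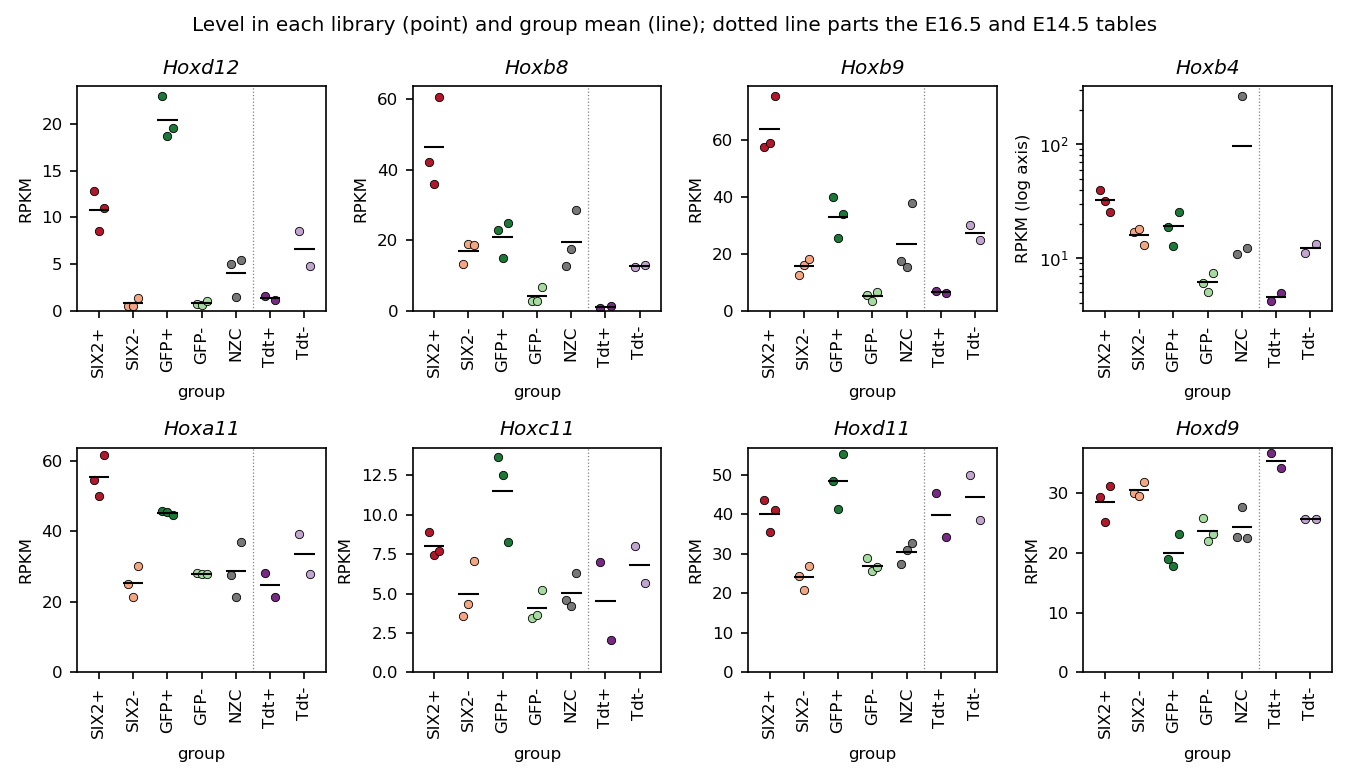
RPKM of 8 Hox genes in each library (points) with the group mean (line), for the 7 groups, linear axes from 0 except for Hoxb4, which has a log axis. Hoxd12, Hoxb8 and Hoxb9 are higher in SIX2+ and GFP+ than in SIX2- and GFP- and lower in Tdt+ than in Tdt-, Hoxd9 is not higher in either progenitor fraction, and Hoxb4 has 1 NZC library at 264 RPKM.

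As a share of all Hox RPKM, HoxB had the widest range of group means. HoxB made up 36.4% ± 3.03 (SD, n = 3) in SIX2+, 28.4% ± 2.85 in SIX2-, 25.7% ± 2.41 in GFP+ and 15.2% ± 2.25 in GFP-. It was 11.8% and 12.8% in the Tdt+ libraries and 24.2% and 25.3% in Tdt-. In all 3 sorts the HoxB shares of the compared fractions did not overlap. HoxA and HoxD shares went the other way at E16.5. HoxA was 24.8% in SIX2+ and 28.5% in SIX2-, and 24.8% in GFP+ and 34.0% in GFP-. HoxD was 18.9% in SIX2+ and 22.2% in SIX2-, and 21.6% in GFP+ and 25.8% in GFP-, with overlap in the GFP sort. The mean summed RPKM of HoxA and of HoxD was still higher in the positive fraction of both sorts. HoxC was 27.5% and 31.9% in Tdt+ and 20.5% and 21.9% in Tdt-. These shares are descriptions, with no test. Summed Hox RPKM was 499 and 633 in Tdt+ and 592 and 698 in Tdt-, which overlap.

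**Figure D5:**
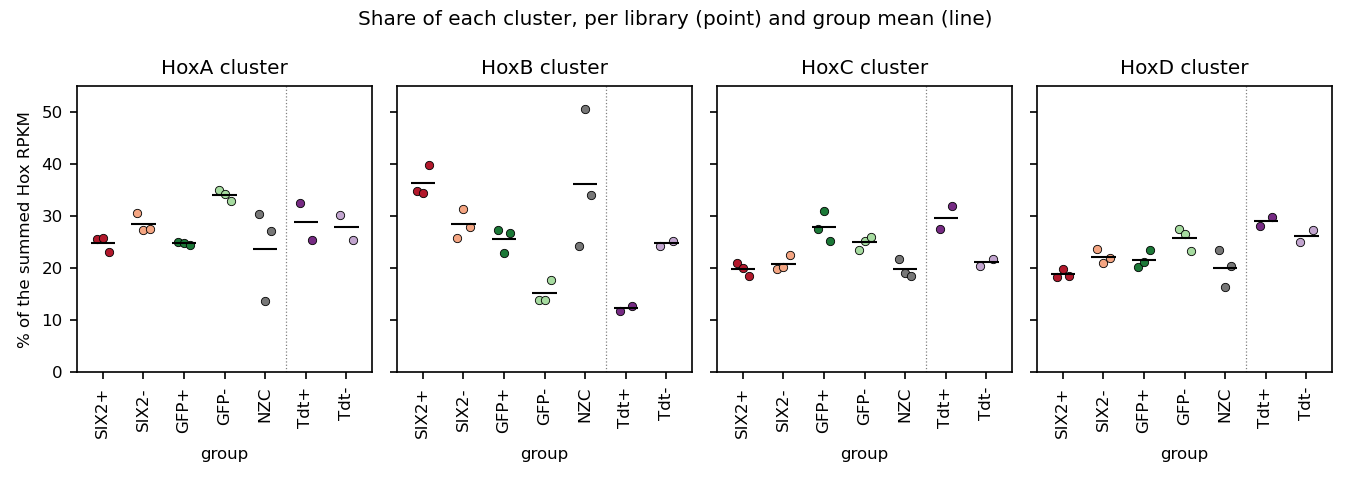
Percentage of the summed Hox RPKM of a library that came from each cluster (1 panel per cluster), per library (points) with the group mean (line), for the 7 groups. HoxB is higher in SIX2+, GFP+ and Tdt- than in SIX2-, GFP- and Tdt+, and the NZC group has the widest spread for HoxA, HoxB and HoxD.

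The progenitor fractions of the SIX2 and GFP sorts were compared with each other next. Between SIX2+ and GFP+ 2 Hox genes were higher in SIX2+ (0.772% of all genes) and 1 was lower (2.3%, or 3.07% in either direction). At an unadjusted p under 0.05, 13 of 32 Hox genes were higher and 3 lower, with no count of all genes at that cut-off. The median Hox difference was 0.48 where that of all genes was 0.05. Hoxb2 was higher by 0.90 ± 0.20 (limma adjusted p = 0.0219) and Hoxb7 by 0.85 ± 0.19 (adjusted p = 0.0224). Hoxa6 was lower by log2 -0.92 ± 0.23 (adjusted p = 0.0401), at 5.80, 7.66 and 8.38 in SIX2+ and 15.6, 11.2 and 17.7 in GFP+, with no overlap. All 8 testable HoxB genes had positive differences, of 0.63 to 1.11. Hoxd12 had a negative difference that was not called, at 10.8 ± 2.12 (SD, n = 3) in SIX2+ and 20.4 ± 2.24 in GFP+ (adjusted p = 0.159). All 3 calls were lost without SIX2+ library 1 or 3 or GFP+ library 1 or 3, or with values rescaled to TPM. Without NZC library 2 the counts were 6 higher and 2 lower, Hoxd12 among the latter, where 374 and 609 of 12760 genes were called.

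More Hox genes were called between the negative fractions. Between SIX2- and GFP- 7 Hox genes were higher in SIX2- (5.7% of all genes) and 1 was lower (4.42%, or 10.1% in either direction). At an unadjusted p under 0.05, 12 Hox genes were higher and 1 lower, with no count of all genes at that cut-off. The median Hox difference was 0.39 where that of all genes was 0.10. Hoxb8 was higher by 1.89 ± 0.32 (limma adjusted p = 0.00408), Hoxb9 by 1.45 ± 0.30 (adjusted p = 0.0104) and Hoxb7 by 1.13 ± 0.19 (adjusted p = 0.0034). Hoxb6 (1.32 ± 0.25, adjusted p = 0.00724), Hoxb5 (1.31 ± 0.31, adjusted p = 0.0213), Hoxb2 (1.30 ± 0.20, adjusted p = 0.00236) and Hoxa9 (0.80 ± 0.20, adjusted p = 0.0236) made up the rest. Hoxa6 was again the gene that was lower, by log2 -0.91 ± 0.23 (adjusted p = 0.0252). With the replicate number as a block Hoxb3, Hoxc9 and Hoxd4 were also higher, with adjusted p of 0.0455, 0.0444 and 0.0106. Without SIX2- library 2 the higher Hox genes were 3 and the lower 0, where 87 and 120 of 12748 genes were called. Allele, tissue source and cell preparation go with the groups in these comparisons. The SIX2 fractions came from the nephrogenic zone and the GFP fractions from GFP-sorted kidney. The erythroid markers (817 to 8433 RPKM in GFP-, 3.61 to 16.2 in SIX2-) go with the groups too. These cannot be told apart from the sort.

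Unsorted NZC libraries gave levels that did not always fall between the sorted fractions. Over NZC libraries 1 and 3, the mean of 10 of the 32 Hox genes lay between the SIX2+ and SIX2- means, 20 lay below both and 2 above both. Hoxd12 was at 5.01, 1.52 and 5.48 RPKM in NZC, and Hoxb9 at 17.6, 15.3 and 37.9. NZC library 2, the shallow one, was the lowest for Hoxd12 and Hoxb9 and the highest for Hoxb4. Erythroid markers summed to 271 to 2978 RPKM in NZC and 0.286 to 16.2 in the fixed sorted fractions, and their part in these levels was not tested.

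Hox cofactors did not move as a family. Pbx2 and Pbx4 were higher and Meis1 and Pknox2 lower in the progenitor fractions of both sorts, and none of these was called between Tdt+ and Tdt-. Pbx4 was under 1 RPKM in every SIX2-, GFP- and NZC library. It met the filter only through the groups where it was high, so its calls are weak evidence. Meis1 was at 14.7, 17.6 and 16.8 RPKM in SIX2+ and 55.01, 44.8 and 55.03 in SIX2-, and at 5.60, 5.30 and 5.11 in GFP+ and 68.003, 68.02 and 67.1 in GFP-. It fell in both sorts, by log2 -1.60 ± 0.15 (limma adjusted p = 2.05e-06) and -3.44 ± 0.15 (adjusted p = 1.70e-09), and this differed between the sorts (1.84 ± 0.21, adjusted p = 0.00544). Pbx2 was higher by 0.73 ± 0.12 (adjusted p = 3.68e-04) and 1.0 ± 0.12 (adjusted p = 1.64e-05). Cofactors thus moved in both directions where the called Hox genes moved in 1.

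Partners and targets of the Hox11 genes were checked other than Six2, whose product or allele defined the sorts. Eya1 and Pax2 were higher in both sorts and lower in Tdt+, while Gdnf was called in none. Eya1 and Pax2 were under 1 RPKM in each Tdt+ library, so they met the E14.5 filter only through Tdt-. Their calls in the Tdt sort are thus weak evidence. Pax2 was at 115, 147 and 214 RPKM in SIX2+ and 19.8, 35.1 and 63.2 in SIX2-, and at 0.348 and 0.470 in Tdt+ and 75.3 and 94.1 in Tdt-. Gdnf, the ligand that draws out the ureteric bud, was at 21.5, 20.9 and 25.9 in SIX2+ and 18.8, 20.4 and 43.8 in SIX2-, which overlap. Of 7 regulators that open or extend Hox expression along the axis (Cdx1, Cdx2, Cdx4, Gdf11, Nr6a1, Lin28a and Lin28b), Gdf11 alone was high enough to test. Gdf11 was at 2.30, 3.16 and 2.89 in SIX2+ and 3.59, 4.10 and 6.48 in SIX2- and fell by log2 -0.57 ± 0.19 (adjusted p = 0.042), and it was not called in the GFP or Tdt sort.

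Of the non-coding genes in the clusters, Hoxa11os, Hoxb5os and Hotair were higher in the progenitor fractions of both sorts. Of 19 listed non-coding genes and neighbours, 4 were testable at E16.5 and 7 at E14.5. Hoxa11os, antisense to Hoxa11, was at 45.5, 38.8 and 54.4 in SIX2+ and 15.6, 16.98 and 23.04 in SIX2-, a difference of 1.28 ± 0.23 (limma adjusted p = 7.83e-04). Hoxb5os was higher by 1.49 ± 0.29 (adjusted p = 0.0016) in the SIX2 sort and 2.42 ± 0.29 (adjusted p = 1.84e-05) in the GFP sort, and fell by log2 -1.35 ± 0.24 (adjusted p = 0.0139) in Tdt+. Hotair, which lies between Hoxc11 and Hoxc12, was higher by 0.65 ± 0.22 (adjusted p = 0.044) and 0.83 ± 0.22 (adjusted p = 0.0096). Like Pbx4, Hotair was under 1 RPKM in every SIX2-, GFP- and NZC library. It met the filter only through the groups where it was high, so its calls are weak evidence. Unless reads were counted by strand, Hoxa11os and Hoxb5os cannot be told apart from the Hox genes they overlap.

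The microRNAs of the clusters are shown because miR-196 is known to target Hoxb8 mRNA, the gene with the largest Tdt difference. Mature sequences are from RefSeq on GRCm38.p6, with the seed (bases 2 to 8) in capitals, at chr11:96265187-96265208 for miR-196a-5p and chr6:52230129-52230150, minus strand, for miR-196b-5p, which share that seed.
miR-196a-5p: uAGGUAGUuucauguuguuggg
miR-196b-5p: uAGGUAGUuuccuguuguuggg
Poly(A) libraries measure transcripts over the gene, not the mature microRNA. Mir196a-1, next to Hoxb9, was at 7.24 and 5.82 RPKM in Tdt+ and 3.53 and 1.85 in Tdt-, which is about 7 and 5 reads against 11 and 5 in the deeper Tdt- libraries. The groups do not overlap in RPKM and the difference was not called (limma adjusted p = 0.0747). In the E16.5 table Mir196a-1 is listed at 0 in all libraries.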

How the data were processed

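The authors deposited a value per gene and library for 15 E16.5 and 4 E14.5 libraries, in separate tables. The tables are titled TPM, but their columns do not sum to one total, and the deposited values behave as RPKM. TopHat2, Partek and mm10 are named per the submitters' processing notes. A stranded Kapa mRNA kit and the RecoverAll and RNeasy Micro kits are named per the labels' protocols, without saying which RNA kit served which library. The annotation, not given in the sources used here, and the strand setting of the counting could not be checked.

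Hox genes were found by symbol (38). Members, gene lists and tests were chosen with earlier results of these data known. Values were tested as log2(RPKM + 1) with limma 3.58.1 (eBayes with trend, two-sided) in R 4.3.3, over genes at 1 or more in at least 3 E16.5 or 2 E14.5 libraries. All 15 E16.5 libraries entered 1 fit with 10 residual degrees of freedom, and the E14.5 fit had 2. A call needed an adjusted p under 0.05 (Benjamini-Hochberg), and the same scripts were tested on simulated data. Fold changes, also written as differences, are on that log2 scale with standard errors. All Hox genes entered the tests and counts, and the results of some single genes, Hox and other, are not reported here or drawn. Values in every library are given for those called in at least 2 of the SIX2, GFP and Tdt sorts and for Hoxa11, Hoxc11 and Hoxd11, and others named with values were chosen after their values were seen. Same-numbered libraries deviated together from their group means (r 0.28 to 0.68 for SIX2+ with SIX2-, 0.39 to 0.45 for GFP+ with GFP-, 0.44 to 0.55 for SIX2- with GFP-). The main fit had no block, so its standard errors and p-values do not use this pairing. Only an alternative fit took the numbers as pairs, with the replicate number as a block. Depth was estimated from steps in the low values (54.7% to 71.1% of them near whole reads), so counts were not recovered and no count model was used. Positions are from GENCODE M21. Alternatives changed the pseudocount, the filter, the scaling, the weights, the libraries and the block. Levels and motifs came from pandas 2.3.3 and numpy 2.4.6 under python 3.11.15, and matplotlib 3.10.9 drew the figures.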

Additional observations from a re-analysis of the deposited data

Results flagged for a closer look

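Hoxb4 was at 264 RPKM in NZC library 2, a group that is in no tested contrast but shares their estimate of spread, against 32.1 ± 7.05 RPKM (SD, n = 3) in SIX2+, 15.99 ± 2.61 in SIX2- and 10.8 and 12.2 in the other NZC libraries. This library was the shallowest of the E16.5 table, at about 3.09 M reads, and Hoxb3 and Hoxb5, the neighbours of Hoxb4, were at 14.6 and 7.64 RPKM in it.

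Meis1, a Hox cofactor, fell less in the SIX2 sort than in the GFP sort, by a difference of 1.84 ± 0.21 on the log2 scale (limma adjusted p = 0.00544). SIX2+ libraries held 14.7, 17.6 and 16.8 RPKM and GFP+ libraries 5.60, 5.30 and 5.11, while the negative fractions were at 55.01, 44.8 and 55.03 and 68.003, 68.02 and 67.1. No Hox gene passed the same test.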

How the results depend on the processing

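The Hox genes followed in a comparison were those called in the main fit or, in the SIX2 and GFP sorts, without NZC library 2. Among them no difference changed sign under any alternative. Being chosen by calls in the same data, they were unlikely to, and genes that were not called were not followed. Of 384 values per gene and alternative in the SIX2 sort 356 stayed on their side of the threshold, as did 354 of 368 in the GFP sort, 60 of 71 in the Tdt sort, 29 of 48 between SIX2+ and GFP+ and 112 of 128 between SIX2- and GFP-. Counts of higher Hox genes stayed at 18 to 26 in the SIX2 sort and 21 to 26 in the GFP sort. Lower genes appeared in the SIX2 sort with no filter (1) and library weights (1), and in the GFP sort with a pseudocount of 0.1 (1), no filter (2), TPM (1), the replicate block (1) and weights (2). Leaving out 1 library gave 18 to 24 higher in the SIX2 sort and 21 to 23 in the GFP sort. Over all genes it gave 666 to 1733 and 1366 to 3011 higher.

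In the Tdt sort lower genes were 2 with no filter and 2 to 11 when 1 library was left out, and higher genes 2 with quantile normalisation and 0 to 2 when 1 library was left out. Leaving out 1 Tdt library leaves 1 library in a group, and the number of all genes called moved widely between these fits. Their counts of Hox genes are thus not evidence about the Hox genes. Between SIX2+ and GFP+ the higher genes were 0 with TPM, 18 with weights and 7 with only those groups in the fit. Leaving out 1 library gave 0 to 6. The lower genes were 0 with no filter, TPM or quantile normalisation, 5 with weights, 2 with only those groups and 0 to 2 leaving out 1 library. Over all genes, only those groups gave 281 higher and 490 lower of 11398, and leaving out 1 library 29 to 374 higher and 84 to 609 lower. Between SIX2- and GFP- weights gave 21 higher and 4 lower, only those groups 14 higher, and leaving out 1 library 3 to 10 higher and 0 to 1 lower. Over all genes, only those groups gave 1791 higher of 12161, and leaving out 1 library 87 to 2095 higher and 120 to 1160 lower. Weights gave 3 and 6 for the difference between the sorts. With weights the share of all genes called higher and lower also rose, to 12.3% and 11.8% between SIX2+ and GFP+, 38.3% and 23.5% between SIX2- and GFP-, 26.6% and 28.4% in the SIX2 sort and 31.4% and 26.1% in the GFP sort. The cause was not tested.

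With the replicate number as a block, 22 Hox genes were higher in the SIX2 sort, 22 higher and 1 lower in the GFP sort, and 10 higher between SIX2- and GFP-. Of 12817 genes, 1540 were then higher and 2342 lower in the SIX2 sort and 2673 and 2544 in the GFP sort. Between SIX2- and GFP- it was 1540 and 993. The block changed no other Hox call in these paired comparisons. The numbers did not pair SIX2+ with GFP+ (r -0.02 to 0.58), where the block gave 7 higher (256 of all 12817 genes). For Tdt+ with Tdt- r was 0.399, near that of GFP+ with GFP-. With 2 libraries per group the deviations mirror each other, so pairing could not be judged. There the block gave 2 higher and 8 lower, where 613 and 1694 of 12383 genes were called. Rescaling to TPM moved the median of all genes by -0.25 in the Tdt sort and -0.17 between SIX2- and GFP-, and quantile normalisation turned 1073 higher and 2036 lower genes of the SIX2 sort into 1578 and 1574. The GFP sort went from 2035 and 2184 to 1397 and 2532 with TPM, the Tdt sort from 151 and 893 to 239 and 483 with quantile normalisation, and SIX2- against GFP- from 730 and 566 to 225 and 649 with TPM, 498 and 824 with quantile normalisation and 361 and 836 with median-of-ratios scaling. Depth limits low genes in NZC library 2 and in Tdt+.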
